A study of Mus musculus with 89 samples.

Results

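The comparison described here was between 5 plates of jejunal single cells labelled CD24 and 6 plates labelled Epcam, all from mouse 2, out of 89 samples in the series. The plates were chosen by their labels alone, and all 11 were used. The series sequenced clumps of attached cells and single cells of the mouse small intestine with MARS-seq 2.0, a plate-based 3′ end protocol in which wells carry barcodes and transcripts are counted by unique molecular identifiers (UMIs). Both groups came from a C57BL/6 male of post natal 3 months on regular chow, whose jejunum was taken apart with EDTA, first on ice and then warm, and neither group carried a mutation or a drug treatment. The groups thus differed, by their labels, only in the surface protein named for the sort. In the study's methods, dead cells were removed with DAPI and cells were stained for Epcam with CD45 or for Epcam with CD24. Single cells in general were sorted as CD45- and Epcam+, a gate that leaves out blood-derived cells. The gate for enteroendocrine cells was CD45-, Epcam+ and CD24+, whereas the gate for tuft cells left CD45 out because tuft cells carry it. The labels do not say which of these gates a CD24 plate had. All plates come from 1 animal, so they are technical replicates, and every p-value below measures the spread between plates, not between mice.

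Epcam is an adhesion molecule on the side membranes of intestinal epithelial cells and is the usual handle for sorting epithelium. CD24, encoded by Cd24a, is a small glycosylated surface protein that is high on tuft, enteroendocrine and Paneth cells and on crypt base cells, and low on villus enterocytes. CD45, encoded by Ptprc, is the phosphatase that marks blood-derived cells. Tuft cells sense luminal contents through a taste-like signalling cascade, and enteroendocrine cells release hormones. Lymphocytes sit between the epithelial cells and come off with them when the tissue is treated with EDTA.

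Wells were kept with 200 to 7000 UMIs, 150 to 1500 detected genes and at most 40% mitochondrial UMIs, which left 1653 of 4224 wells. The CD24 plates kept 168 to 275 wells each, 1080 of 1920 in all, and the Epcam plates kept 48 to 139 each, 573 of 2304 in all. The kept wells of a plate summed to between 88459 and 446920 UMIs, with 1620359 UMIs on the CD24 plates and 1498958 on the Epcam plates. The median UMIs per well were 814 to 1805.5 on the CD24 plates and 868 to 3532 on the Epcam plates. This difference had an adjusted p of 0.0462 by an exact permutation test, and the call was lost when any 1 plate other than Epcam plate 3 was left out. The median mitochondrial share was 8.64 to 10.3% on the CD24 plates and 24.6 to 32.04% on the Epcam plates, with no overlap (adjusted p = 0.00866, exact permutation test). The mitochondrial limit alone removed 26 wells on the CD24 plates and 381 on the Epcam plates. The same 384 well barcodes were used on every plate. No pair of plates agreed within sampling noise, and CD24 plates 1 and 2 stood apart from the other CD24 plates in their lymphocyte content, given below.

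The genes of the proteins used for sorting followed the plate labels. Cd24a (GRCm38 chr10:43578284-43584265, plus strand) was present at 690, 1066, 1560, 2003 and 1429 UMIs per 1000000 UMIs of the plate (CPM) on CD24 plates 1 to 5. On Epcam plates 1 to 6 it was at 69.9, 44.8, 22.6, 17.6, 191 and 37.4 CPM. Every CD24 plate was above every Epcam plate. The log2 difference was 3.66 with a standard error (SE) of 0.45 (adjusted p = 5.49e-07, edgeR quasi-likelihood test with Benjamini-Hochberg adjustment over all genes tested, used for all gene-level differences here).

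Epcam (GRCm38 chr17:87635979-87651129, plus strand) went the other way, at 291, 332, 631, 555 and 446 CPM on the CD24 plates against 1045, 785, 904, 917, 845 and 870 CPM on the Epcam plates. The groups did not overlap, and the log2 difference was -1.75 (SE 0.29, adjusted p = 2.19e-05). When wells of the lymphocyte class (defined below) were left out, an alternative chosen after seeing the data, the difference was -0.998 with an adjusted p of 0.00138, and with plates scaled by total UMIs alone it was -0.83 (adjusted p = 0.0191). Ptprc (GRCm38 chr1:138062861-138175708, minus strand) was at 548, 649, 321, 312 and 317 CPM on the CD24 plates. The Epcam plates held 19.4, 2.24, 0, 0, 6.35 and 6.23 CPM, from 9 UMIs in all. Ptprc was thus near 0 in one group and plainly present in the other. It passed the filter on low counts through the CD24 plates, so its levels are a description, with no test.

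**Figure D1:**
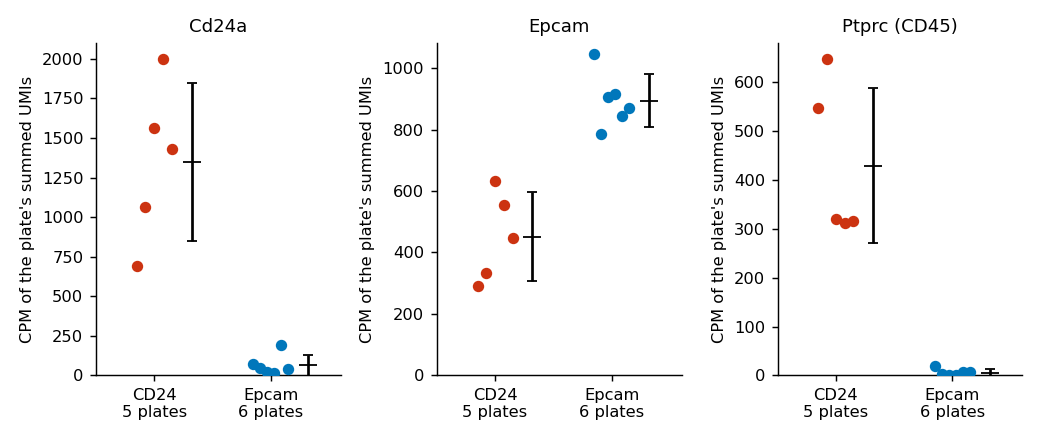
Level of Cd24a, Epcam and Ptprc in each plate, in CPM of the plate's summed UMIs (vertical axes, linear, from 0), for the 5 CD24 and 6 Epcam plates, with 1 point a plate and the mean ± SD as a bar. The groups do not overlap for any of the 3 genes, with Cd24a at 690 to 2003 against 17.6 to 191 CPM and Epcam at 291 to 631 against 785 to 1045 CPM.

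To see which cells stood behind these sums, each well was given a class when it held at least 10 UMIs of 1 marker list and more of that list than of any other. The lists had 50 tuft, 48 enteroendocrine, 39 goblet and 10 Paneth genes of the study found in the table, and 32 lymphocyte genes. A class therefore says which markers a well held, and its own list genes are no finding within it. Tuft wells numbered 9, 17, 30, 29 and 19 on the CD24 plates, and enteroendocrine wells 22, 23, 44, 38 and 35. The Epcam plates held 7 tuft wells and 9 enteroendocrine wells in all.

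Tuft wells made up 10.5 ± 5.64% of kept wells on the CD24 plates (SD, n = 5, range 3.27 to 16.9%) and 1.31 ± 0.446% on the Epcam plates (SD, n = 6, range 0.781 to 2.08%), an 8.06-fold difference of means. Enteroendocrine wells made up 16.3 ± 7.51% (range 8.00 to 24.7%) and 1.58 ± 1.35% (range 0 to 3.95%), a 10.4-fold difference. Goblet wells showed the reverse, with 1 well in all on the CD24 plates and 64 on the Epcam plates, where they made up 12.3 ± 5.56% (range 5.76 to 18.75%). Lymphocyte wells made up 57.5 ± 21.0% on the CD24 plates, and 0 of 573 wells on the Epcam plates were in this class, which allows a share of up to 0.524% by counting error. Whether a plate was sorted with CD45 excluded is not in its label, so the CD24 and CD45 gates cannot be told apart in this difference. All 4 of these differences were without overlap between groups and had an adjusted p of 0.00541 (exact permutation test over all splits of the plates, two-sided, adjusted over 5 classes), from an unadjusted p of 0.00433, which is the smallest this design allows. Wells of no class numbered 141 on the CD24 plates and made up 78.9 to 92.1% of each Epcam plate.

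Lymphocyte wells were at 80 and 79.0% on CD24 plates 1 and 2 and at 34.5 to 51.2% on the other CD24 plates, and the tuft and enteroendocrine shares were lowest on plates 1 and 2. Among wells outside the lymphocyte class, a denominator chosen after seeing the data, tuft wells made up 24.5 ± 5.86% (range 16.4 to 30.9%) and enteroendocrine wells 39.4 ± 5.70% (range 29.5 to 43.1%) on the CD24 plates. Some wells lay near the limit of 10 UMIs. In the enteroendocrine class of the CD24 plates, 17 wells held 10 to 14 list UMIs and 17 further wells held 5 to 9, against a median of 44.5 within the class.

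**Figure D2:**
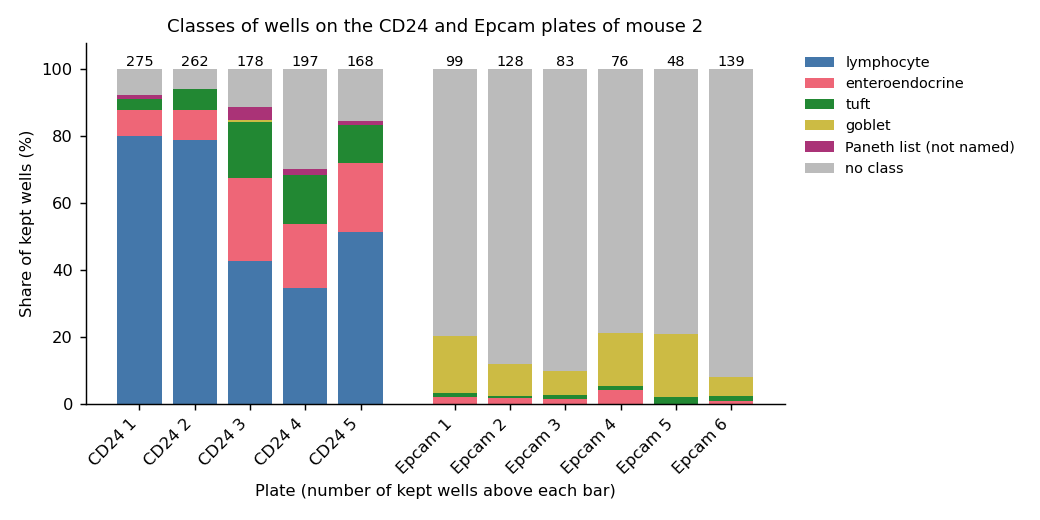
Share of kept wells in each class (vertical axis, %) on each of the 11 plates (horizontal axis), with the number of kept wells above each bar. Lymphocyte wells make up 34.5 to 80% of the CD24 plates and none of the Epcam plates, and goblet wells make up 5.76 to 18.75% of the Epcam plates.

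The Cd24a transcripts came mostly from the epithelial secretory wells and not from the most frequent class. Of 2045 Cd24a UMIs on the CD24 plates, tuft wells gave 58.7% and enteroendocrine wells 29.1%, whereas lymphocyte wells gave 7.24% while holding 50.1% of all UMIs. Among the 86 Cd24a UMIs on the Epcam plates, 72.1% were in the 7 tuft wells. Cd24a is in none of the class lists, so its level by class is independent of them. On the CD24 plates it was 5256 ± 915 CPM in tuft wells (SD, n = 5 plates, range 4003 to 6248), 1716 ± 287 CPM in enteroendocrine wells (range 1334 to 2013), 502 ± 177 CPM in wells of no class and 196 ± 73.0 CPM in lymphocyte wells (range 138 to 320). The order of tuft, enteroendocrine and lymphocyte wells was without overlap between plates, while the range of wells of no class (216 to 687) overlapped that of lymphocyte wells. The pooled level of Cd24a in tuft wells was 4920 CPM from 1201 UMIs on the CD24 plates and 4841 CPM from 62 UMIs on the Epcam plates. In enteroendocrine wells it was 1648 CPM from 595 UMIs and 415 CPM from 8 UMIs. With 1 or 2 tuft wells and 0 to 3 enteroendocrine wells per Epcam plate, these pairs of values were not tested.

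Epcam, which is also in none of the lists, was at 1214 ± 417 CPM in tuft wells and 671 ± 158 CPM in enteroendocrine wells of the CD24 plates. It was at 105 ± 49.7 CPM in their lymphocyte wells. On the Epcam plates it was at 948 ± 101.1 CPM in goblet wells and 893 ± 105 CPM in wells of no class. Tuft and enteroendocrine wells on the CD24 plates therefore carried Epcam at levels that overlapped those on the Epcam plates. In wells of no class on the CD24 plates Epcam was at 162 ± 55.6 CPM. Their range did not overlap that of the same class on the Epcam plates (86.0 to 226 against 787 to 1085 CPM). A Cd24a UMI was found in 37.8% of wells on the CD24 plates and 4.54% on the Epcam plates, although the median depth was 1206.5 against 2306 UMIs. In the lymphocyte wells of the CD24 plates, 17.2% held a Cd24a UMI and 12.0% an Epcam UMI at a median of 1057 UMIs, and shares of this size were not read as expression.

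**Figure D3:**
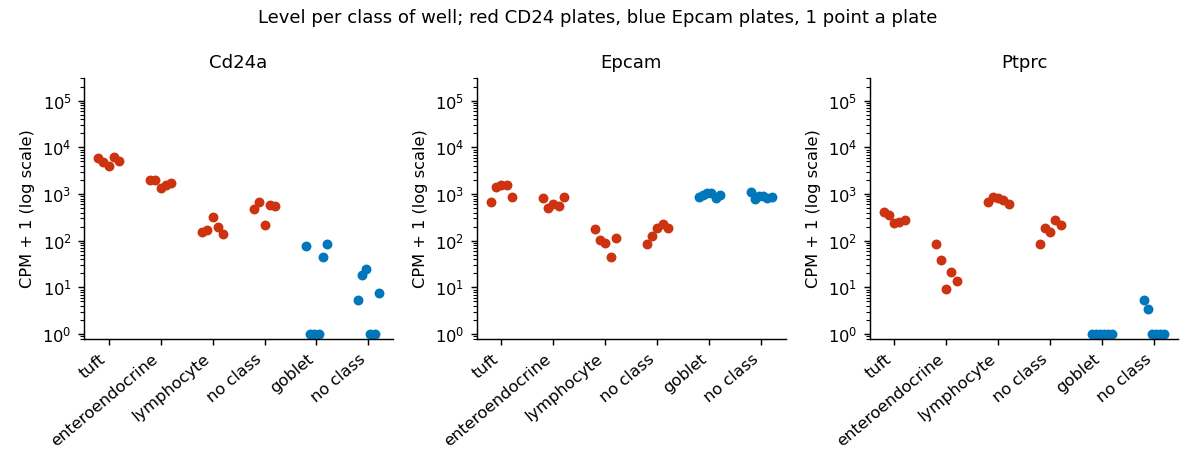
Level of Cd24a, Epcam and Ptprc by class of well, as CPM + 1 on a log axis, with 1 point for each plate that held at least 5 wells of the class (red, CD24 plates; blue, Epcam plates). Cd24a is at 4003 to 6248 CPM in tuft wells and 138 to 320 CPM in lymphocyte wells of the same plates.

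Across all genes, 2935 passed the filter on low counts and 2093 of them (71.3%) were called at an adjusted p under 0.05, 1132 higher (38.6%) and 961 lower (32.7%) on the CD24 plates. In 51.9% of genes tested the plates of the groups did not overlap. With so many genes called, a share of called members near these values says nothing about a list. Members with few UMIs in one group passed the filter through the other group and had to differ, so counts of called members and their medians are a description, and genes with at most 30 UMIs in one group, a limit chosen after seeing the data, are given by their levels with no test. Such genes made up 4 of 4 tested members of the tuft taste cascade, 11 of 17 of the other tuft genes, 2 of 8 hormone genes and 6 of 10 granule protein genes. They made up 3 of 9 goblet genes, 3 of 14 lipid-handling genes, 13 of 24 brush border genes and 7 of 12 villus tip genes. The median log2 difference over all genes was 0.11. The scaling mattered for the split: with plates scaled by total UMIs alone, an alternative chosen after seeing the data, the median was 1.09, and 2217 genes were called (75.5%), 1700 higher (57.9%) and 517 lower (17.6%), with no gene called in opposite directions by the 2 scalings. The factors of the trimmed mean of M values (TMM) method were 1.24 to 1.57 on the CD24 plates and 0.596 to 1.18 on the Epcam plates, so the fitted differences below lie under the log2 ratios of the CPM values by about the distance between these medians. Directions are given for genes that kept them under both scalings unless stated. Since the sums pool unlike cells, more cells of a type and more RNA per cell cannot be told apart in them.

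Genes of the tuft taste cascade were higher on the CD24 plates in 4 of 4 members tested, of 11 in the table, with a median log2 difference of 3.09. Trpm5, the cation channel that depolarises the cell at the end of the cascade, was at 73.2, 247, 303, 342 and 335 CPM on the CD24 plates and at 23.3, 15.7, 0, 13.2, 57.2 and 9.35 CPM on the Epcam plates. The groups were apart, with 391 against 28 UMIs, and CD24 plate 1, with the fewest tuft wells, was the lowest of its group. Rgs13, a regulator of G protein signalling, was at 63.8 to 377 CPM against 0 to 57.2 CPM, from 269 and 12 UMIs, with Epcam plate 5 the highest of its group. Plcg2, a phospholipase, was at 89.2 to 151 CPM against 0 to 12.7 CPM (197 and 10 UMIs), and Itpr2, a calcium release channel, at 54.3 to 94.2 CPM against 0 to 24.6 CPM (120 and 22 UMIs). Plcg2 varied little among the CD24 plates although tuft wells ranged from 3.27 to 16.9% of their wells.

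Of tuft genes for eicosanoids and cytokines, 2 of 10 were tested, and they differed in direction. Alox5ap, which presents arachidonic acid to 5-lipoxygenase, was at 63.8 to 322 CPM against 0 to 19.4 CPM, from 268 and 14 UMIs. Il13ra1, a chain of the interleukin-13 receptor, was at 14.7 to 64.4 CPM against 31.2 to 113 CPM, with overlap. Its log2 difference was -1.27 (adjusted p = 0.00555), and -0.34 with no call (adjusted p = 0.454) when plates were scaled by total UMIs alone. Genes too low to be tested included Hpgds, the prostaglandin D synthase of these cells, with 78 UMIs on the CD24 plates and 0 on the Epcam plates, at least 24.1-fold higher (floor of 3 UMIs over the group).

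Among tuft factors, cytoskeletal and other tuft genes, 15 of 17 tested members were higher and 2 lower, of 26 in the table, with a median of 3.19, and with total UMIs alone 15 were higher and 1 lower. Krt18, a keratin and an abundant tuft transcript, was at 546, 1682, 1694, 2136 and 1842 CPM on the CD24 plates and at 124 to 324 CPM on the Epcam plates (log2 difference 2.11, SE 0.35, adjusted p = 2.23e-05). CD24 plate 1 was again the lowest of its group and still above every Epcam plate. Sh2d6, an SH2 domain adaptor, was at 135 to 649 CPM against 11.3 to 76.2 CPM, with a difference of 3.14 (adjusted p = 2.39e-06). Rac2, a GTPase also made in blood cells, was at 399 to 619 CPM against 0 to 31.8 CPM (801 and 13 UMIs).

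The 2 lower members were the actin-bundling proteins of microvilli that enterocytes share with tuft cells. Vil1 was at 125 to 367 CPM on the CD24 plates against 869 to 1323 CPM on the Epcam plates (log2 difference -2.87, adjusted p = 8.65e-08). Espn was at 47.2 to 253 CPM against 195 to 248 CPM, with overlap. Its difference of -1.14 (adjusted p = 0.00347) was -0.19 (adjusted p = 0.616) with plates scaled by total UMIs alone, and -0.22 with no call when lymphocyte wells were left out.

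Within the tuft wells of the CD24 plates, several tuft genes that are in no class list could be read independently of the class. Krt18 was at 7781 ± 2026 CPM (SD, n = 5 plates), against 881 ± 246 CPM in enteroendocrine and 184 ± 54.8 CPM in lymphocyte wells. Ltc4s, the leukotriene C4 synthase, was at 323 ± 39.1 CPM in tuft wells and 3.29 ± 7.36 CPM in enteroendocrine wells. Sucnr1, the succinate receptor, was at 229 ± 106 CPM with 52 UMIs, and Il17rb, the receptor chain for interleukin-25, at 203 ± 54.3 CPM with 48 UMIs, where enteroendocrine wells held 1 UMI of each. Gnat3, the taste G protein subunit, gave 25 UMIs in tuft wells and 0 in the enteroendocrine, lymphocyte and no-class wells of these plates. Il25 itself, the cytokine by which tuft cells call on innate lymphoid cells, gave only 2 UMIs in 104 tuft wells. Ptprc was at 308 ± 76.9 CPM in tuft wells, 32.8 ± 31.4 CPM in enteroendocrine wells and 747 ± 108.4 CPM in lymphocyte wells, whose list holds it. The CD45 gene was thus present in tuft wells above the level in enteroendocrine wells of the same plates, with no overlap (242 to 420 against 8.23 to 85.2 CPM).

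Enteroendocrine hormone and serotonin genes were higher on the CD24 plates in 5 of 8 tested members, of 14 in the table, with a median log2 difference of 2.32, and none was lower. With total UMIs alone 7 of the 8 were higher. Untested members included Gcg, which encodes proglucagon, with 232 UMIs on the CD24 plates and 359 on the Epcam plates, and Nts, which encodes neurotensin, with 65 and 41 UMIs. The 1 well of the Epcam plates led by Gcg, on plate 2, held 349 hormone UMIs. Gip, the incretin hormone of the upper intestine, was at 5358, 19834, 18848, 12853 and 19905 CPM on the CD24 plates. The Epcam plates held 2692, 4.48, 995, 1593, 6.35 and 28.1 CPM. Every CD24 plate was above every Epcam plate, and the Epcam plates with enteroendocrine wells led by Gip, plates 1 and 4, were the highest of their group. The log2 difference of Gip was 3.44 (SE 0.97, adjusted p = 0.00354), and 4.14 without Epcam plate 1. Sst, which encodes somatostatin, was at 4472, 655, 4433, 9804 and 10640 CPM, and on the Epcam plates it was seen only on plate 2, at 600 CPM. Its log2 difference was 4.75 (SE 1.19, adjusted p = 0.00141), and 13.38 without Epcam plate 2, a fitted value against plates at 0 and so no measure of size.

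Sct, which encodes secretin, was at 1304 to 3035 CPM against 12.7 to 728 CPM (log2 difference 2.28, adjusted p = 0.00318), and its difference was 2.89 without Epcam plate 4. Ghrl, which encodes ghrelin, was at 425, 109, 1135, 872 and 1433 CPM against 3.88, 177, 0, 0, 0 and 430 CPM. The ranges of Ghrl overlapped, and its log2 difference of 1.84 did not pass (adjusted p = 0.0613), although it did with total UMIs alone (2.99, adjusted p = 0.00287), without lymphocyte wells (2.59, adjusted p = 0.0126), without CD24 plate 2 (2.15) and without Epcam plate 6 (3.06). Cck, the satiety hormone of I cells, was at 176 to 615 CPM against 0 to 497 CPM (log2 difference 0.32, adjusted p = 0.698).

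Granule proteins were higher in 9 of 10 tested members, of 16 in the table, with a median of 3.402, and in 10 of 10 with total UMIs alone. Chga and Chgb, the chromogranins of secretory granules, were at 940 to 1799 and 1870 to 3948 CPM on the CD24 plates, against 3.12 to 224 and 0 to 614 CPM on the Epcam plates. Epcam plate 4, which has the most enteroendocrine wells of its group, gave the highest value for both. The log2 differences were 4.05 (adjusted p = 3.59e-05) for Chga and 3.52 (adjusted p = 0.000256) for Chgb, and 6.37 and 5.16 without that plate. Scg2, secretogranin II, was at 21.3 to 154 CPM against 0 to 102 CPM, and its difference of 1.10 did not pass (adjusted p = 0.0706). It passed with total UMIs alone (2.07, adjusted p = 0.00132), without CD24 plate 1 (1.35), without Epcam plate 2 (1.47) and without Epcam plate 3 (1.41). Of 14 genes for enteroendocrine transcription factors, only Sox4, which the tuft list also holds, passed the filter on low counts. Sox4 had 107 UMIs on the CD24 plates and 8 on the Epcam plates, given here with no test.

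The enteroendocrine wells of the CD24 plates were led by different hormones. A well was assigned the hormone gene with the most UMIs, of at least 10. Gip led 49 of the 162 wells (30.2%) and Sst 18 wells, while Tac1 led 4, Cck 3, Ghrl 2, and Gcg and Nts 1 each. No hormone of Gip, Sst, Ghrl, Gcg, Cck, Nts, Pyy and Tac1 reached 10 UMIs as the lead in 84 wells (51.9%). Sct, at 7795 to 10499 CPM in the enteroendocrine wells of the CD24 plates, and the serotonin gene Tph1 were not among the genes that could lead. Wells without a lead therefore need not lack a hormone. Gip led wells on every CD24 plate (5, 10, 15, 11 and 8 wells), and so did Sst (3, 1, 2, 5 and 7 wells). The 9 enteroendocrine wells of the Epcam plates were led by Gip in 3, and by Sst, Ghrl, Gcg, Cck and Tac1 in 1 each, with none leading in 1. Of these genes only Tac1 is in the class list.

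Of 32 lymphocyte genes in the table, 21 had no UMI on any Epcam plate. The 24 members that passed the filter on low counts, 15 of them with no UMI on the Epcam plates, passed it through their levels on the CD24 plates, so their levels are given as a description, with no test. Gzma, a granule protease of cytotoxic cells, was at 16038, 15624, 4060, 4144 and 9033 CPM on the CD24 plates and at 2 UMIs in all on the Epcam plates, both on plate 6. CD24 plates 1 and 2 were the highest. The pooled ratio was 7842 (95% exact counting interval 2171 to 64762, counting error only). Gzmb was at 989 to 4004 CPM against 3 UMIs (ratio 1224, interval 418 to 5936), and the T cell coreceptor gene Cd8a at 290 to 1171 CPM against 1 UMI (ratio 1077, interval 193 to 42567).

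Cd7, a T cell surface protein, was at 2488, 2598, 608, 575 and 1172 CPM and had no UMI on the Epcam plates, at least 803-fold higher. Cd3g and Cd3e, chains of the T cell receptor complex, were at least 343-fold and 246-fold higher. Tcrg-C1, a constant region of the gamma chain, was at 995, 1016, 248, 223 and 534 CPM and at least 324-fold higher. Nkg7, a granule membrane protein, was at least 251-fold higher and Srgn, the core protein of granule proteoglycan, at least 250-fold. Ccl5, a chemokine, was at 2374 to 10562 CPM against 4 UMIs, all on Epcam plate 6. In the lymphocyte wells of the CD24 plates, Trdc, the constant region of the delta chain, gave 586 UMIs and Trac, that of the alpha chain, 363 UMIs, at 695 ± 150 and 355 ± 178 CPM. Both genes are in the class list, so this describes the class and tests nothing.

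Goblet mucus and folding genes were lower in 9 of 9 tested members, of 27 in the table, with a median log2 difference of -4.92, and in 7 of 9 with total UMIs alone. Zg16, a lectin of the mucus layer, was at 54.3, 2.94, 36.5, 9.91 and 11.1 CPM on the CD24 plates against 13754, 5985, 7450, 21398, 19854 and 5268 CPM on the Epcam plates (-9.71, SE 0.73, adjusted p = 8.89e-10), and its difference was -10.34 without CD24 plate 1. Muc2, the gel-forming mucin, was at 2.94 to 26.1 CPM against 475 to 2006 CPM (17 and 1645 UMIs). Clca1, a secreted metalloprotease, was at 0 to 5.22 CPM against 427 to 1782 CPM (4 and 1385 UMIs). Fcgbp, a mucin-binding protein, was at 17.6 to 117 CPM against 1142 to 4854 CPM (-6.48, and -7.34 without CD24 plate 3). Tff3, the trefoil peptide of goblet cells, was at 184 to 746 CPM against 2858 to 11744 CPM (-4.92). No plate overlapped for these 5 genes, and all but Tff3 were named by a rule that required this.

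Agr2, a disulfide isomerase of the mucin-folding machinery, did not follow the others. It was at 201, 194, 258, 114 and 324 CPM on the CD24 plates and at 482, 177, 90.4, 535, 305 and 40.5 CPM on the Epcam plates, with overlap. Its difference of -1.11 passed narrowly (adjusted p = 0.0359). The call was lost when CD24 plate 1 (-1.11), 2 (-1.03) or 4 (-0.95) or Epcam plate 1 (-0.98) or 4 (-0.80) was left out, and the difference was 0.043 (adjusted p = 0.94) without lymphocyte wells and -0.16 with total UMIs alone. On the CD24 plates Agr2 was at 917 ± 405 CPM in enteroendocrine wells and 15.7 ± 22.2 CPM in tuft wells, and on the Epcam plates at 2611 ± 1231 CPM in goblet wells, whose list holds it.

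Lipid-handling genes of enterocytes were lower in 14 of 14 tested members, of 19, with a median of -5.05. The 19 include the mitochondrial gene mt-Tp, matched by symbol in place of Mttp and not tested. Scarb1, a lipoprotein receptor of the same list that was too low to be tested, had 61 UMIs on the CD24 plates and 1 on the Epcam plates. Apoa1, the main protein of high-density lipoprotein, was at 260, 79.3, 162, 302 and 251 CPM against 7178, 6205, 8072, 5674, 5246 and 4962 CPM (-5.64, SE 0.39, adjusted p = 2.66e-10). Apoa4, an apolipoprotein of chylomicrons, was at 14.7 to 234 CPM against 3582 to 6907 CPM (-6.39, and -6.97 without CD24 plate 1). Fabp2, the intestinal fatty acid binding protein, was at 76.3 to 401 CPM against 1982 to 5132 CPM (-5.06). Fabp1 showed a smaller difference, with 255 to 1185 CPM against 992 to 3199 CPM, overlapping ranges and -2.07 (adjusted p = 2.74e-05). Fabp1 on the CD24 plates stood in the tuft wells, at 3737 ± 892 CPM, against 2057 ± 938 CPM in wells of no class on the Epcam plates, with overlapping ranges (2364 to 4731 and 1182 to 3348), whereas enteroendocrine wells held 250 ± 107 CPM.

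Brush border enzymes and transporters were lower in 24 of 24 tested members, of 30, with a median of -4.64, and in 22 with total UMIs alone. Slc5a1, the sodium-glucose cotransporter, was at 35.2 to 55.3 CPM against 698 to 1142 CPM (-5.10, adjusted p = 5.13e-11), and Sis, the sucrase-isomaltase, at 130 to 254 CPM against 645 to 1673 CPM (-3.34). Enpep, an aminopeptidase, and Treh, the trehalase, gave 2 UMIs each on the CD24 plates and 194 each on the Epcam plates, ratios of 105 in favour of the Epcam plates (interval 28.6 to 872). Cdhr5, a protocadherin that links microvilli, had the smallest difference of the 24. It was at 144 to 595 CPM against 356 to 575 CPM, with overlap, and its difference of -0.92 (adjusted p = 0.0107) was lost without lymphocyte wells (-0.028) and with total UMIs alone (-0.0020). In tuft wells of the CD24 plates Cdhr5 was at 1808 ± 381 CPM, against 447 ± 92.1 CPM in wells of no class on the Epcam plates.

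Further genes with the largest fall were Slc34a2, a phosphate transporter, at 2 UMIs against 234 (ratio 126 in favour of the Epcam plates, interval 34.6 to 1050), and Mall, a membrane trafficking protein, at 1 UMI against 113 (ratio 122, interval 21.5 to 4867). Ido1, which degrades tryptophan, was at 0 to 7.09 CPM against 81.0 to 408 CPM (4 and 294 UMIs). Cyp3a13, a cytochrome P450, was at 0 to 7.83 CPM against 212 to 396 CPM (8 and 437 UMIs), and Sprr2a2, a small proline-rich protein, at 7.37 to 79.3 CPM against 870 to 1848 CPM (-6.48). The rule that named these 5 genes required no overlap between groups.

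Villus tip genes were lower in 11 of 12 tested members, of 14, with a median of -4.50. The other, Nt5e, differed by -0.17 (adjusted p = 0.614), and with total UMIs alone 11 were lower and 1 higher. Ada, the adenosine deaminase of the tip, was at 0 to 26.0 CPM against 324 to 1097 CPM (21 and 809 UMIs). Clca4a was at 0 to 23.6 CPM against 184 to 723 CPM (15 and 717 UMIs), and Pmp22 at 0 to 7.09 CPM against 103 to 299 CPM (4 and 312 UMIs). Antimicrobial genes of the lower villus were lower in 6 of 7 tested members, of 10. Reg3b and Reg3g, bactericidal lectins, were at 35.4 to 208 and 20.5 to 118 CPM against 923 to 5234 and 628 to 2374 CPM (-5.03 and -4.76). The member that was higher was Lyz2, the lysozyme of myeloid cells, at 151 to 813 CPM against 0 to 11.3 CPM, from 5 UMIs in all on the Epcam plates.

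**Figure D4:**
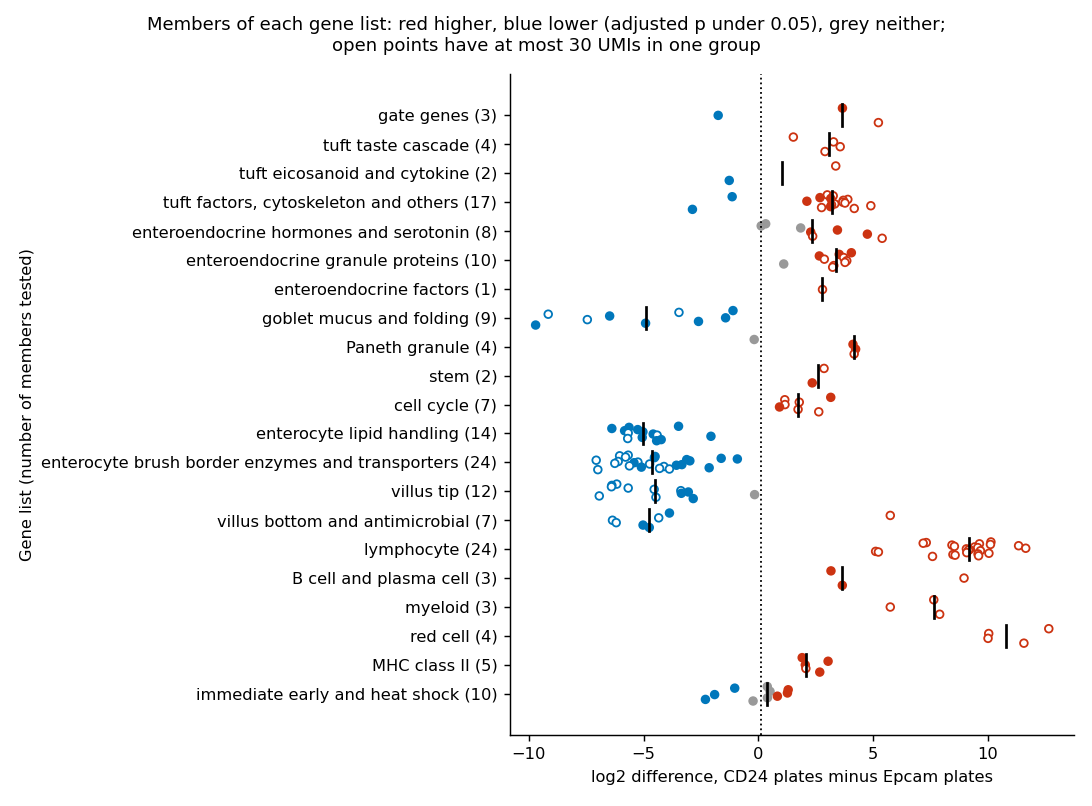
Fitted log2 difference, CD24 plates minus Epcam plates (horizontal axis), of each tested member of each gene list (rows, with the number tested), red where higher and blue where lower at an adjusted p under 0.05, grey where neither. Open points have at most 30 UMIs in one group and are a description only. Bars are list medians, and the dotted line is the median of all 2935 genes, 0.11. The red cell and lymphocyte lists lie farthest to the right, and the enterocyte and goblet lists lie to the left.

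Sums of the study's landmark genes for position along the crypt-villus axis also differed. The 30 crypt genes summed to 12546 to 17944 CPM on the CD24 plates and 1703 to 6387 CPM on the Epcam plates, the 10 mid-villus genes to 444 to 1715 against 4112 to 10581 CPM, and the 30 tip genes to 4902 to 7153 against 12138 to 16935 CPM. All 3 had an adjusted p of 0.00433 (exact permutation test, two-sided, adjusted over 3 sums, the smallest the design allows). Of the crypt genes, 25 carry the names of ribosomal protein genes, pseudogenes included, and every cell type makes ribosomal proteins, so the crypt sum is not a measure of crypt cells on plates that hold lymphocytes. In the tip sum, Malat1, a nuclear RNA made by most cells, gave a mean of 4819 CPM on the CD24 plates and 3333 CPM on the Epcam plates, and so most of the sum on the CD24 plates. Stem cell genes could be tested for 2 of 21 members, Hopx and Cd44, both higher. Of the untested ones, Sox9 had 86 UMIs on the CD24 plates and 11 on the Epcam plates. Lgr5, also untested, had 45 and 35 UMIs, and Axin2 6 and 9. Cell cycle genes could be tested for 7 of 40 members, all higher, with a median of 1.73. Of these tested genes, 1 stem and 5 cell cycle genes had at most 30 UMIs in one group, so their differences are a description. Ccnd2, a G1 cyclin of the cell cycle list, was at 709 ± 97.5 CPM in lymphocyte wells, 542 ± 98.9 CPM in enteroendocrine wells and 20.7 ± 17.6 CPM in tuft wells of the CD24 plates.

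Paneth granule genes were higher in 3 of 4 tested members, of 21. Defa24, an alpha-defensin, was at 2899, 17.6, 3147, 2865 and 284 CPM on CD24 plates 1 to 5 and at 11.3 to 114 CPM on the Epcam plates (log2 difference 4.12, SE 0.82, adjusted p = 0.00015). CD24 plate 2 lay within the range of the Epcam plates. Across classes of the CD24 plates, Defa24 was at 1594 ± 1432 CPM in tuft, 1740 ± 1564 CPM in enteroendocrine, 1894 ± 1707 CPM in lymphocyte and 1868 ± 1681 CPM in no-class wells. The means of the 4 classes differed by less than the spread between plates. On the Epcam plates Defa24 was at 441 ± 498 CPM in goblet wells (range 85.2 to 1419) and 19.1 ± 11.7 CPM in wells of no class (range 0 to 30.5), without overlap. The 15 wells above 10 UMIs of the Paneth list held a median of 16 list UMIs and 4 of them were rich in hemoglobin, so they were not called Paneth cells. Their share was 1.55 ± 1.45% against 0% (adjusted p = 0.0303, exact permutation test), and the call was lost without CD24 plate 1, 3, 4 or 5 (adjusted p = 0.0667 each). Defensin genes have near-identical copies, and how reads were shared among them was not tested.

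Abundant transcripts of one class were also counted in wells of another. Gip was at 59652 ± 31017 CPM in enteroendocrine wells and 1019 ± 670 CPM in lymphocyte wells of the same plates, where 65.0% of wells held a Gip UMI. Gzma was at 19500 ± 4018 CPM in lymphocyte wells and 424 ± 344 CPM in enteroendocrine wells, where 49.4% held a UMI. Gzma is in the lymphocyte list and Gip in none. Levels of these sizes outside the leading class were not read as expression, and their source was not tested.

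**Figure D5:**
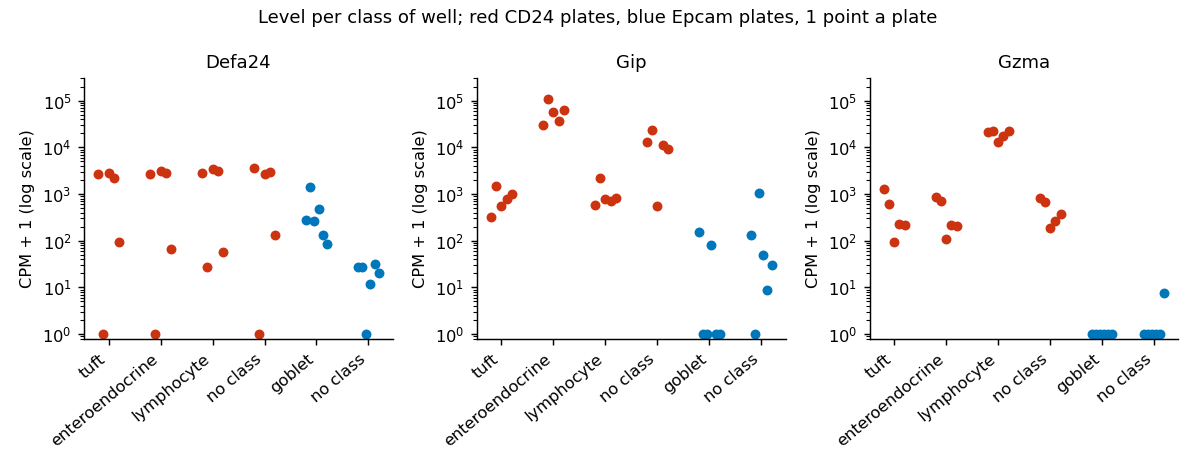
Level of Defa24, Gip and Gzma by class of well, as CPM + 1 on a log axis, with 1 point for each plate that held at least 5 wells of the class (red, CD24 plates; blue, Epcam plates). Gip and Gzma are highest in enteroendocrine and lymphocyte wells, while Defa24 lies high on CD24 plates 1, 3 and 4 and low on plates 2 and 5 in each class shown for the CD24 plates.

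Blood cells other than T cells also left transcripts on the CD24 plates. Hba-a1, a hemoglobin chain, was at 4321, 182, 9984, 69.4 and 2457 CPM and had no UMI on the Epcam plates, at least 1973-fold higher. CD24 plate 3 was the highest. Wells with over 1% hemoglobin UMIs numbered 20 on the CD24 plates and 0 on the Epcam plates, and leaving them out, an alternative chosen after seeing the data, gave 2095 called genes. Of 9 B and plasma cell genes, 3 passed the filter, and Ighm, the heavy chain of immunoglobulin M, had 430 UMIs against 0. Igha, the heavy chain of immunoglobulin A, was at 465, 1039, 2949, 6057 and 1426 CPM against 0, 4.48, 1571, 0, 0 and 3.12 CPM. The ranges overlapped through Epcam plate 3, and the difference of 3.16 (adjusted p = 0.0194) was lost without CD24 plate 4 (2.54, adjusted p = 0.0508) and was 9.05 without Epcam plate 3. Jchain, the joining chain, was seen on Epcam plate 3 alone of its group, at 384 CPM, with 331 to 1021 CPM on the CD24 plates, so the ranges overlapped through that plate. Its difference was 3.65 (adjusted p = 0.000748), and 10.22 without Epcam plate 3, again a fitted value against plates at 0. Both calls were lost with the DESeq2 Wald test (3.12, adjusted p = 0.134 for Igha, and 3.29, adjusted p = 0.141 for Jchain) and with wells thinned to 500 UMIs (1.75, adjusted p = 0.124, and 1.67, adjusted p = 0.0716, edgeR).

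Genes of antigen presentation by MHC class II were higher in 5 of 5 tested members, of 7, with a median of 2.07. Cd74, the invariant chain, was at 1330, 1424, 1931, 3539 and 1901 CPM against 197 to 464 CPM (1.91, SE 0.30, adjusted p = 1.36e-05), and H2-Aa at 596 to 1680 CPM against 34.3 to 107.97 CPM (3.04). By class, Cd74 was at 4857 ± 2879 CPM in no-class wells and 2663 ± 1503 CPM in lymphocyte wells of the CD24 plates, and at 122 ± 47.5 CPM in enteroendocrine wells. Of 12 myeloid genes, 3 passed the filter, through the CD24 plates, with 513 against 5 UMIs for Lyz2, 708 against 1 for Tyrobp and 182 against 0 for Itgax. Of 13 mesenchyme and endothelium genes none could be tested, and 11 were at 0 on all Epcam plates and 7 on all CD24 plates. Immediate early and heat shock genes, which mark handling of the tissue, were higher in 3, lower in 3 and not called in 4 of 10 tested members, with a median of 0.39. With total UMIs alone 6 were higher and 2 lower.

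With lymphocyte wells left out, 1632 genes could be tested and 1195 were called (73.2%), 627 of them higher (38.4% of genes tested) and the rest lower (34.8%). Of these genes, 1096 were also called over all wells, and 1 changed direction. Tuft factors and related genes were then higher in 19 of 21 members, hormones in 8 of 9 and granule proteins in 11 of 11. Lipid-handling genes were lower in 14 of 14 members, brush border genes in 21 of 22 and goblet genes in 6 of 7. Cd24a differed by 4.54 on the log2 scale.

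The wells of no class were unlike between the groups. They held 701 testable genes, of which 618 were called (88.2%), 269 higher (38.4%) and 349 lower (49.8%) on the CD24 plates, with a median log2 difference of -0.73. With total UMIs alone the split was 338 higher and 194 lower, and the median 0.76. Cd24a was at 473, 687, 216, 573 and 559 CPM in these wells of the CD24 plates and at 0 to 23.9 CPM in those of the Epcam plates, from 83 and 12 UMIs. Lipid-handling genes were lower in 12 of 12 tested members, brush border genes in 18 of 18 and villus tip genes in 8 of 8. No-class wells held 10.3% of all UMIs on the CD24 plates and 89.2% on the Epcam plates. Such members can pass the filter on low counts through the Epcam plates alone, so these counts are a description. Of the hormone genes, Gip was at 556 to 23225 CPM against 0 to 1052 CPM, with overlap through CD24 plate 3 and Epcam plate 3. Sst was at 499 to 17295 CPM against 0 to 24.5 CPM, from 10 UMIs on Epcam plate 2, given here with no test. The median mitochondrial share was 9.39% in the no-class wells of the CD24 plates and 32.3% in those of the Epcam plates. Tuft wells were at 14.9% and 17.8%, enteroendocrine wells at 9.80% and 9.59%, and goblet wells of the Epcam plates at 12.9%. Its part in the differences of these wells was not tested.

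Other single-cell plates of the series, from mice 3 and 4, were labelled onlyEpcam, with 7 plates each. Cd24a was at 18.9 to 95.8 CPM and 0 to 202 CPM on them, overlapping the range of the Epcam plates of mouse 2. Lymphocyte wells made up 37.1 to 59.7% and 9.09 to 44.3% of their kept wells, where the plates of mouse 2, labelled Epcam and not onlyEpcam, had none. Plates of these mice with CD45Epcam and CD54Epcam labels were not analysed here. These mice were not compared by a test, since mouse and label cannot be told apart.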

How the data were processed

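Single cells were sorted into 384-well plates and sequenced by MARS-seq 2.0. The authors converted reads with bcl2fastq 2.15.0.4 (version from the submitters' processing notes), aligned them to GRCm38 by strand with STAR inside zUMIs, and deposited UMI counts per gene and well, as raw counts. The study subtracted a background taken from empty wells of each plate, which was not done here, because the labels do not name those wells. Plates were grouped by their labels, and plates of mice 1, 3 and 4 were read for values only. UMIs of kept wells were summed per plate and tested with edgeR 4.0.16 (R 4.3.3) after TMM scaling and its filter on low counts, without covariates, and genes were called at an adjusted p under 0.05. The fit was tested on simulated data. Shares and sums were compared by exact permutation tests (scipy 1.17.1), two-sided, with Benjamini-Hochberg adjustment within each family. Intervals and floors (3 UMIs over a group) cover counting error only.

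Named genes were Cd24a, Epcam and Ptprc, the 12 genes with the largest rise and the 12 with the largest fall among called genes of at least 50 CPM with no overlap (mitochondrial genes, predicted genes and pseudogenes left out), and up to 6 most abundant members of each list. Other genes read by class of well, and Hpgds, were chosen after their values were seen. The plates, members and lists were chosen with earlier results of these data known. Alternatives were DESeq2 1.42.0, other filters, thinning to 500 UMIs, a replicate block and leaving out each plate.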

Additional observations from a re-analysis of the deposited data

Results flagged for a closer look

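In 21 of 145 groups of plates examined, 1 plate lay farther from the others than Dixon's 95% limit allows. A group in which only 1 plate held any UMI is flagged by the rule itself. This holds for Gzma, Ccl5, Cd8a, Sst and Jchain on the Epcam plates, so the count of flags was not compared with chance. Several of the flagged values belong to wells already described. Epcam plate 5 had the highest Cd24a (191 CPM) and Rgs13 (57.2 CPM) of its group. Epcam plate 4 had the highest Chga (224 CPM) and Chgb (614 CPM). Epcam plate 2 was the only one of its group with Sst (599.7 CPM). Epcam plate 6 held all the Gzma (6.23 CPM), Ccl5 (12.5 CPM) and Cd8a (3.12 CPM) of its group, and Epcam plate 1 had the most Ptprc (19.4 CPM).

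Epcam plate 3, the shallowest plate, stood apart most often. It had the lowest median mitochondrial share of its group (24.6%) and the highest crypt landmark sum (6387 CPM), Scg2 (102 CPM), Enpep (328 CPM), Reg3b (5234 CPM), Igha (1571 CPM) and Jchain (384 CPM). On the CD24 side, plate 1 had the lowest Krt18 (546 CPM). Plate 3 had the only goblet well (0.562% of its wells) and the only Mall (2.61 CPM), and plate 4 had the highest Fabp2 (401 CPM) and Cd74 (3539 CPM).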

How the results depend on the processing

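Of 104 named genes with a fit, 90 kept their direction and their side of the threshold under every alternative in which they could be tested. A gene that fell below the filter on low counts in an alternative was not counted as changed. Of the 104, 3 changed sign, none of them with a call after the change. These were Agr2 (0.043 without lymphocyte wells), Zfp36 (0.69 with total UMIs alone and 0.056 without both CD24 plates 1 and 2) and Cck (-0.013 to 1.08 with 1 plate left out). The count of 2093 called genes was 5594 with no filter on low counts, 555 with wells thinned to 500 UMIs, 3193 with no upper limit on UMIs and genes and 1195 without lymphocyte wells. In wells of no class the count of 618 was 2977 with no filter, 119 after thinning and 1030 without both CD24 plates 1 and 2. Fewer or more genes were tested under each of these settings. The difference in median UMIs per well was -1053 without both CD24 plates 1 and 2 (adjusted p = 0.127, exact permutation test).

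Leaving out 1 plate at a time gave 1886 to 2423 called genes over all wells and 448 to 824 in wells of no class. The difference between groups ranged from 7.64 to 11.0 percentage points for tuft wells, 12.6 to 16.8 for enteroendocrine wells, 51.9 to 63.2 for lymphocyte wells and 0.951 to 1.93 for wells of the Paneth list. It ranged from -1424 to -891 for median UMIs per well.

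Replicate numbers did not pair the plates, since the correlations of same-numbered plates' deviations ran from -0.14 to 0.06. With the replicate block, 1951 genes were called over all wells and 603 in wells of no class, and Ghrl passed the threshold (4.64, adjusted p = 0.00118, edgeR). Depth limits the comparison on Epcam plate 3, with 88459 UMIs, and in the classes with few wells on the Epcam plates.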

Other observations

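Mouse 1 also had plates labelled for CD24. The 2 plates labelled EpcamLow_Cd24high kept 34 of 765 wells, and the plate labelled Epcam_Cd24low kept 19 of 343 wells. Of the kept wells, 14 and 6 had over 1% hemoglobin UMIs. Cd24a gave 25 UMIs (397 CPM) on the former and 30 UMIs (939 CPM) on the latter, a ratio of 0.423 (95% exact counting interval 0.238 to 0.743, counting error only), so the library labelled Cd24low held the higher level. Epcam gave 4 UMIs on the plates labelled EpcamLow and 0 UMIs on the other, too few to set against the labels. Hba-a1 was at 72727 and 0 CPM on the 2 plates labelled Cd24high and at 58505 CPM on the plate labelled Cd24low. With so few wells kept, these values cannot show whether the sort followed the labels. With 1 plate in a group there is no test.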
